A study of Mus musculus with 24 samples.

Results

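The genes described are those for the receptors of the 3 cytokines in which these pro-B cells were grown, together with the kinases, transcription factors and feedback inhibitors through which the receptors act on STAT5. There are 10 of them among the 24506 genes of the exon count table, chosen by symbol, and all 10 passed the filter on low counts that left 14550 genes to test. They are Flt3 and Kit, the receptor tyrosine kinases for FLT3 ligand and KIT ligand, Il7r and Il2rg, the chains of the IL-7 receptor, the Janus kinases Jak1 and Jak3, the transcription factors Stat5a and Stat5b, and the feedback genes Socs2 and Cish. The libraries were made from fetal liver pro-B cells of C57BL6/J mice, expanded on OP9 stromal cells with KIT ligand, FLT3 ligand and interleukin-7 at 10 ng/ml each. Every culture carried the retroviral vector pMiG, so the wild-type cells were infected too. Ebf1-deficient (Ebf1-KO) cells carried pMiG with Ebf1, pMiG with Pax5 or empty pMiG, Pax5-deficient (Pax5-KO) cells carried the same 3 vectors, and wild-type cells carried empty pMiG, which makes 7 groups of 2 libraries. Each gene is driven by the retroviral vector in place of its own promoter, and whether infected cells were separated from uninfected ones is not given in the sources used here. EBF1 binding was mapped by chromatin immunoprecipitation in a different cell, the Abelson-transformed mouse pre-B line 230-238, which was kept in RPMI with no cytokine named.

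IL-7 binds a receptor made of IL-7Rα, the product of Il7r, and the common γ chain, the product of Il2rg. IL-7Rα holds JAK1 and the γ chain holds JAK3, and these kinases phosphorylate STAT5A and STAT5B, which enter the nucleus and switch on genes for survival and division. Cish and Socs2 are among the genes that STAT5 switches on, and their products bind the receptors and damp the signal. KIT and FLT3 signal through their own kinase domains and can also activate STAT5. In the mouse, FLT3 marks early lymphoid progenitors and is lost as cells commit to the B lineage, KIT is kept on pro-B cells, and IL-7 signalling is needed for pro-B cells to grow.

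Exon counts ran from 16.1 to 42.1 M per library, and the 10 genes held 0.118 to 0.274% of them. Levels are given as CPM, counts scaled to library size by TMM, in replicate 1 and then replicate 2. Transcripts of the targeted genes were not absent from the knockouts. Ebf1 stood at 244 and 282 CPM in Ebf1-KO cells, against 966 and 1102 CPM in wild-type cells, and Pax5 stood at 20.1 and 12.3 CPM in Pax5-KO cells, against 412 and 333 CPM in wild-type cells. The labels do not say which exons were removed, so these counts are no full check of the labels. Each vector was seen in the knockout of its own gene: Ebf1 reached 857 and 893 CPM with the Ebf1 vector in Ebf1-KO cells, and Pax5 reached 746 and 439.6 CPM with the Pax5 vector in Pax5-KO cells. Pax5 levels with the Pax5 vector in Ebf1-KO cells are not given here, nor Ebf1 levels with the Ebf1 vector in Pax5-KO cells. Equal delivery of a vector to both knockouts was not tested. The 13 pro-B markers together summed to 400 and 456 CPM in Ebf1-KO cells and 1781 and 1855 CPM in Pax5-KO cells, against 8495 and 7898 CPM in wild-type cells. These are bulk samples, in which fewer cells of a type and less RNA per cell cannot be told apart.

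The 250 bases before the transcript start are shown for 5 of the genes, the 4 receptor genes and Cish, each of which was called in at least 1 vector comparison. They come from RefSeq on the GRCm38.p6 (mm10) build, which has no entry for Socs2 in the table used and has one for the other 9 genes, and are written in the direction of transcription. Capitals mark TTCNNNGAA, the core of a STAT5 site, or CCCNNGGG, the core of an EBF1 site. Both motifs read the same on the 2 strands, and no gene held both.
Il2rg (chrX:101268256-101268505, minus strand): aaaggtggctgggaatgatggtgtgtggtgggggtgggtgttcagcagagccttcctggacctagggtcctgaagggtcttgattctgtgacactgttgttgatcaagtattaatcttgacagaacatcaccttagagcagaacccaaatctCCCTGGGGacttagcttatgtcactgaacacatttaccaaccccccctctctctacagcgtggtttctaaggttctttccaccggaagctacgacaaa
Cish (chr9:107296409-107296658, plus strand): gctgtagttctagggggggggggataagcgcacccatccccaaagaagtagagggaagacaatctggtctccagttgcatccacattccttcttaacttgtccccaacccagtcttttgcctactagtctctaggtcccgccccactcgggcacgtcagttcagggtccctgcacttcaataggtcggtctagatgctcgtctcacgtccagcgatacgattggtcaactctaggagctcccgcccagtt
Flt3 (chr5:147400490-147400739, minus strand): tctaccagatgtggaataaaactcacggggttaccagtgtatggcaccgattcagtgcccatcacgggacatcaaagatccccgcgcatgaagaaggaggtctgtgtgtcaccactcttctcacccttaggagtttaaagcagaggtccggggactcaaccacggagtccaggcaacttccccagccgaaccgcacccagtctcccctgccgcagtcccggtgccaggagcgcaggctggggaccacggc
Kit (chr5:75574737-75574986, plus strand): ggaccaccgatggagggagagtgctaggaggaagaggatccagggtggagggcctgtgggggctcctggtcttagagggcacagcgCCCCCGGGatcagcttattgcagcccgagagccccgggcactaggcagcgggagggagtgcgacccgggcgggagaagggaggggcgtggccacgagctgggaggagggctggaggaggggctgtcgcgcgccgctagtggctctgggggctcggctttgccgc
Il7r (chr15:9529877-9530126, minus strand): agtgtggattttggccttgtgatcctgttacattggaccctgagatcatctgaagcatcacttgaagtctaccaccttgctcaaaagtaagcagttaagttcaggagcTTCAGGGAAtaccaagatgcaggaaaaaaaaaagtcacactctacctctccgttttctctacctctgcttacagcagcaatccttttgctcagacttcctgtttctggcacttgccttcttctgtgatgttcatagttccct
Il7r was the only gene of the 9 with TTCNNNGAA in this stretch, first base at -142 from the start, and 7.02% of the 32851 RefSeq promoters hold it in a stretch of the same length. CCCNNGGG began at -98 from the start of Il2rg, at -164 from that of Kit and at -219 from 1 of the 2 listed starts of Stat5a, and 11.8% of all promoters hold it. No match says only that these letters are not in this window, and a match is no measurement of binding.

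The authors' peak list for EBF1 in 230-238 cells holds 17230 peaks, with findPeaks scores from 12 to 578 and a median of 41. A peak centre lay inside the gene or within 20 kb of it for 9 of the 10 genes, where 66.7% of all tested genes had one. Kit was the exception, with its nearest peak 484 kb away. With the centre required to lie inside the gene the count was 5 of 10, where 34.9% of tested genes had one. The scores and folds over input are the authors' values for this list.

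Il2rg had 1 peak, centred 140 bases before its start over the sequence shown, with a score of 97 and a fold of 120.0 over input. At Cish a peak of score 52 was centred 14 bases before the start, and the strongest of its 5 peaks, of score 110, lay 7.43 kb downstream of the start, beyond the gene's end. Flt3 had 8 peaks. The strongest, of score 143, was inside the gene 48.4 kb from the start, and the one at the start, 62 bases in, had a score of 35. Start peaks were also listed for Jak3, 86 bases in with a score of 44, Socs2, 117 bases in with a score of 34, and Jak1, 176 bases in with a score of 22. Il7r had no peak at its start: 1 peak of score 93 lay 37.9 kb from the start, past the gene's end, and 1 of score 31 lay 19.2 kb before it. The 4 peaks before Stat5a, with scores of 41 to 181, fall inside the longer Stat5b span that RefSeq gives (chr11:100780731-100859004), so they cannot be assigned to either gene, and the transcript used for Stat5b in the count table is shorter (chr11:100780731-100822570).

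**Figure D1:**
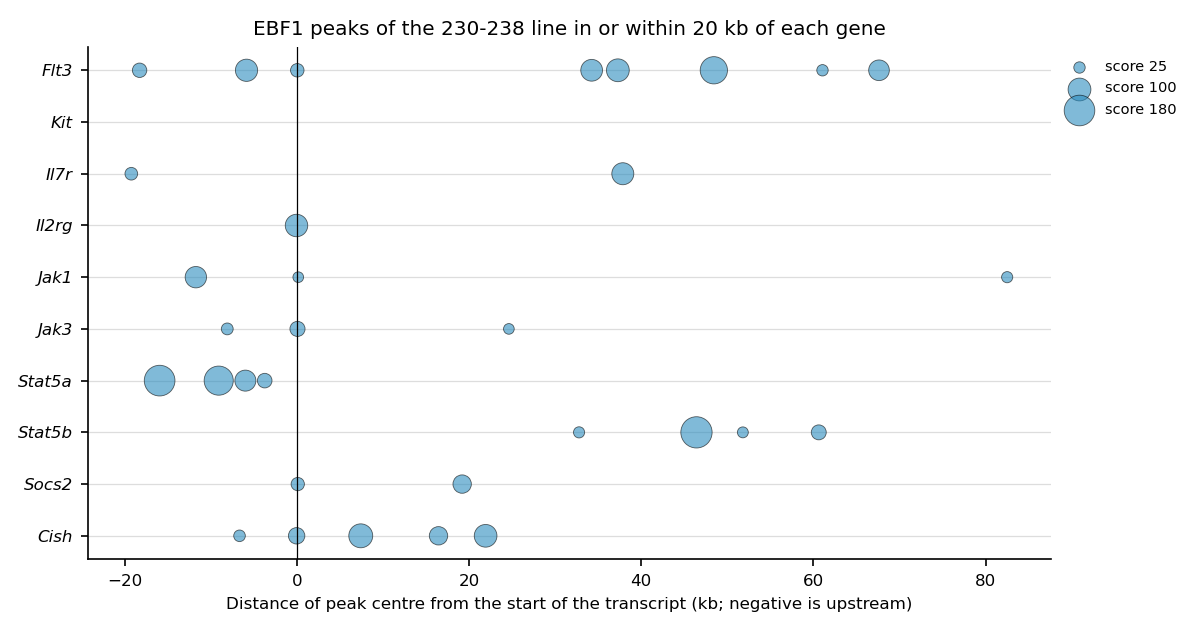
EBF1 peaks of the 230-238 line in or within 20 kb of each gene, plotted by distance of the peak centre from the transcript start in kb (negative is upstream), with circle area proportional to the authors' findPeaks score. Flt3 has 8 peaks inside or upstream of the gene, Il2rg and Cish are among the genes with one at the start, and Kit has none.

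Comparisons were tested with edgeR's quasi-likelihood test over all 14550 genes with Benjamini-Hochberg adjustment, and a gene is called where its adjusted p is under 0.05. Of the 10 genes, 2 were called in Ebf1-KO against wild-type cells, where 14.7% of all tested genes were called, and 4 in Pax5-KO against wild-type cells, where 13.6% were. The median log2 change of the 10 was 0.36 and 0.60 in these comparisons, beside 0.03 and 0.04 over all genes. The 2 comparisons share the wild-type libraries, and Pax5-KO cells also differed from wild type in sex-linked genes, as given with Il2rg. In Ebf1-KO cells the Ebf1 vector changed 2 of the 10 genes against the empty vector, where 2.97% of all genes were called, and the Pax5 vector changed 2, where 4.08% were; both share the empty-vector libraries. In Pax5-KO cells, whose vectors likewise share 1 empty-vector group, the Pax5 vector changed 4 of the 10 genes, where 4.03% of all genes were called. The Ebf1 vector in Pax5-KO cells changed 0 of the 10, where 3.6% of all genes were called, although 3005 genes and, of the 10, Kit, Il2rg and Cish had an unadjusted p under 0.05, and DESeq2 called 1 of the 10, Il2rg.

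After the missing factor was put back, 3 of the 10 genes still differed between Ebf1-KO cells with the Ebf1 vector and wild-type cells, where 11.2% of all genes were called, and 3 differed between Pax5-KO cells with the Pax5 vector and wild-type cells, where 7.13% were. The effect of the Pax5 vector differed between Pax5-KO and Ebf1-KO cells for 3 of the 10 genes, where 3.16% of all genes were called, and that of the Ebf1 vector differed between Ebf1-KO and Pax5-KO cells for 1, where 0.612% were. Over these 10 comparisons 24 calls were made on the 10 genes, 13 of which held when each library was left out in turn. Nothing in the labels says whether the replicates were separate cultures, so p-values here reflect only the variation among these libraries, part or all of which may be technical.

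**Figure D2:**
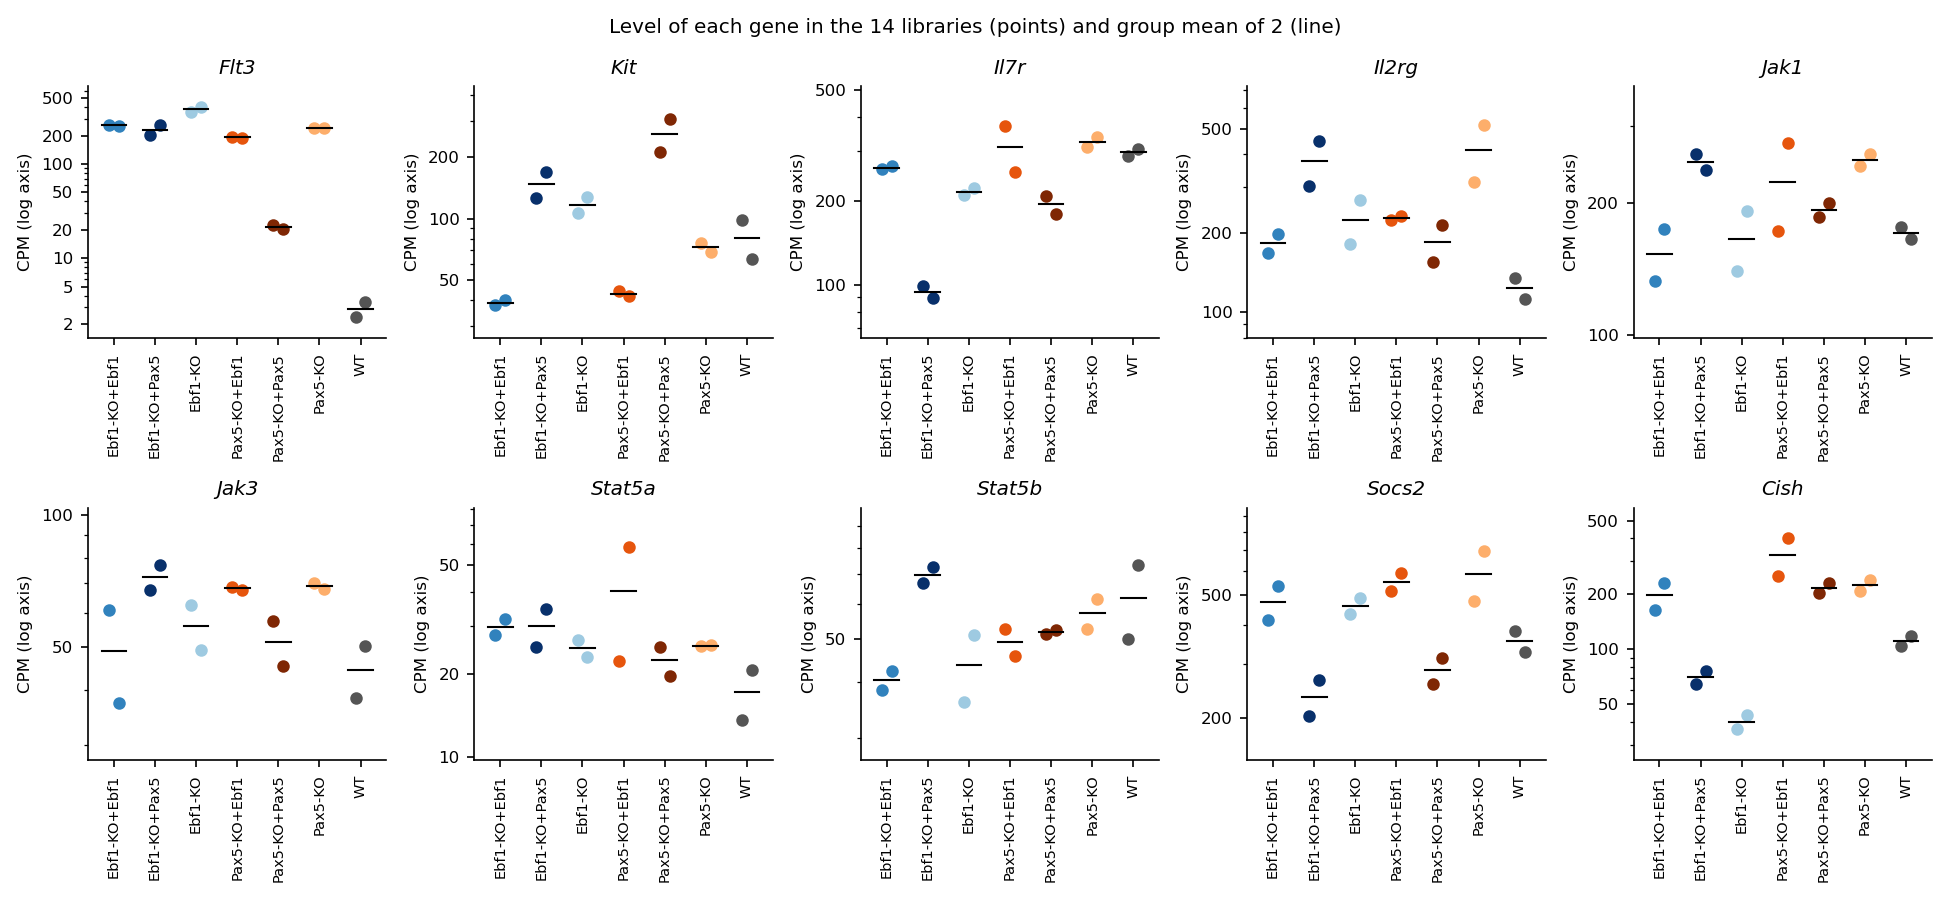
Level of each gene in CPM (log axis) in each of the 14 libraries (points), with the mean of the 2 libraries of a group (line), for the vectors left of the empty vector in each knockout and wild type at the right. Flt3 has the widest range, from 378 CPM on average in Ebf1-KO cells to 2.91 CPM in wild-type cells, and Jak1, Jak3, Stat5a and Stat5b the narrowest.

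Flt3, the receptor for FLT3 ligand, was nearly silent in wild-type cells and expressed in both knockouts. Flt3 (NM_010229, chr5:147330742-147400489) had 356 and 399 CPM in Ebf1-KO cells and 237 and 240.0 CPM in Pax5-KO cells, against 2.38 and 3.43 CPM in wild-type cells. Both knockouts lay far above wild type with no overlap. The gene was 130.2-fold higher in Ebf1-KO than in wild-type cells (log2 7.02 ± 0.26 SE, adjusted p = 3.2e-10, edgeR) and 82.2-fold higher in Pax5-KO than in wild-type cells (log2 6.36 ± 0.26 SE, adjusted p = 1.5e-09).

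Flt3 was lowered by the Pax5 vector in Pax5-KO cells. It fell to 22.4 and 20.5 CPM with the Pax5 vector in Pax5-KO cells, against 237 and 240.0 CPM with the empty vector, an 11.1-fold lower level (log2 -3.48 ± 0.22 SE, adjusted p = 7e-07, edgeR). The level with Pax5 was still 7.39-fold above wild type (log2 2.89 ± 0.23 SE, adjusted p = 1.9e-06). In Ebf1-KO cells the Pax5 vector gave 202 and 260.3 CPM, against 356 and 399 CPM with the empty vector, and these libraries do not overlap, but the change did not pass in edgeR (log2 -0.71 ± 0.20 SE, adjusted p = 0.062) and passed in DESeq2 (adjusted p = 0.011). The effect of the Pax5 vector differed between Pax5-KO and Ebf1-KO cells by -2.77 log2 units (95% interval -3.38 to -2.16, adjusted p = 0.00024, edgeR).

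The Ebf1 vector left Flt3 high in both knockouts. Ebf1-KO cells with the Ebf1 vector had 260.3 and 253 CPM, against 356 and 399 CPM with the empty vector (log2 -0.56 ± 0.20 SE, adjusted p = 0.22, edgeR). In Pax5-KO cells the values were 195 and 189 CPM with the Ebf1 vector, against 237 and 240.0 CPM with the empty vector (log2 -0.31 ± 0.20 SE, adjusted p = 0.39). The vector libraries were lower in each case, without overlap, and neither change passed. Ebf1-KO cells given Ebf1 remained 88.3-fold above wild type (log2 6.47 ± 0.26 SE, adjusted p = 1.3e-09). All called differences of Flt3 held when each library was left out.

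Dendritic cells and early progenitors also carry FLT3, so their other markers are given for every group. The 6 dendritic markers besides Flt3 summed to 48.5 and 50.6 CPM in Ebf1-KO cells and 11.8 and 15.5 CPM in Pax5-KO cells, against 0.259 and 0.515 CPM in wild-type cells. Clec9a and Cd209a were at 0 in wild-type cells and in Pax5-KO cells with Ebf1, and Cd209a also with Pax5 in both knockouts. Siglech and Itgax, 2 of the 5 dendritic markers besides Flt3 that were tested, were called higher in both knockouts than in wild-type cells. In Ebf1-KO cells the sum of the 6 was 8.53 and 9.70 CPM with Ebf1 and 93.1 and 103.5 CPM with Pax5, against 48.5 and 50.6 CPM with the empty vector. In Pax5-KO cells it was 7.21 and 1.61 CPM with Ebf1 and 2.42 and 1.10 CPM with Pax5, against 11.8 and 15.5 CPM with the empty vector.

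The 7 stem and progenitor markers besides Flt3 and Kit summed to 873 and 892 CPM in Ebf1-KO cells and 874 and 901 CPM in Pax5-KO cells, against 450.9 and 444.5 CPM in wild-type cells. Cd34 was at 0 in wild type only, and Mecom was at 0 in every group but Pax5-KO with the empty vector. With Pax5 in Pax5-KO cells, where Flt3 was 11.1-fold lower, this sum was 760 and 972 CPM, against 874 and 901 CPM with the empty vector. With Ebf1 in Pax5-KO cells it was 438 and 520 CPM. In Ebf1-KO cells it was 495 and 416 CPM with Ebf1 and 897 and 1159 CPM with Pax5, against 873 and 892 CPM with the empty vector. The 10 myeloid markers summed to 566 and 509.9 CPM in Ebf1-KO cells and 374 and 369 CPM in Pax5-KO cells, against 26.6 and 26.5 CPM in wild-type cells. In Pax5-KO cells the myeloid sum was 101 and 140 CPM with Pax5 and 306 and 267 CPM with Ebf1. In Ebf1-KO cells it was 641 and 592 CPM with Pax5 and 281 and 248 CPM with Ebf1. The part of these cells in the Flt3 values was not tested.

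Kit, the receptor for KIT ligand, was not called in either knockout against wild type, but fell with Ebf1 in Ebf1-KO cells and rose with Pax5 in Pax5-KO cells. Kit (NM_001122733, chr5:75574987-75656721) had 106 and 127 CPM in Ebf1-KO cells and 76.0 and 68.9 CPM in Pax5-KO cells, against 98.3 and 63.5 CPM in wild-type cells. The wild-type libraries lie far enough apart to enclose both Pax5-KO values. Neither knockout passed against wild type, with log2 changes of 0.53 (95% interval -0.01 to 1.07, adjusted p = 0.198, edgeR) for Ebf1-KO and -0.16 (-0.70 to 0.38, adjusted p = 0.74) for Pax5-KO.

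With the Ebf1 vector Kit fell to 37.8 and 40.2 CPM in Ebf1-KO cells, against 106 and 127 CPM with the empty vector, a 2.99-fold lower level (log2 -1.58 ± 0.26 SE, adjusted p = 0.0023, edgeR). That was also below wild type (log2 -1.05 ± 0.26 SE, adjusted p = 0.014), but this call was lost without wild-type replicate 1 or either replicate of Ebf1-KO with Ebf1, with adjusted p up to 0.178. In Pax5-KO cells Kit had 44.2 and 41.9 CPM with the Ebf1 vector, against 76.0 and 68.9 CPM with the empty vector; the vector libraries were lower, but the change did not pass (log2 -0.75 ± 0.25 SE, adjusted p = 0.12).

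With the Pax5 vector Kit rose to 211 and 307 CPM in Pax5-KO cells, against 76.0 and 68.9 CPM with the empty vector, a 3.57-fold higher level (log2 1.84 ± 0.26 SE, adjusted p = 0.00071, edgeR). These were the highest Kit levels of the 7 groups and stood 3.20-fold above wild type (log2 1.68 ± 0.26 SE, adjusted p = 0.00083). In Ebf1-KO cells the Pax5 vector gave 126 and 169 CPM, against 106 and 127 CPM with the empty vector, which overlap (log2 0.34, 95% interval -0.20 to 0.88, adjusted p = 0.57). The Pax5 effect was larger in Pax5-KO than in Ebf1-KO cells by 1.497 log2 units (95% interval 0.73 to 2.26, adjusted p = 0.035). This difference lost its call without any one of 6 of the 8 libraries, namely both of Ebf1-KO with empty vector, replicate 1 of Ebf1-KO with Pax5, both of Pax5-KO with empty vector and replicate 2 of Pax5-KO with Pax5, with adjusted p up to 0.237.

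Mast cells and progenitors also carry KIT. The 7 mast cell and basophil markers besides Kit summed to 4.14 and 4.08 CPM with Ebf1 and 39.0 and 71.6 CPM with Pax5 in Ebf1-KO cells, against 2.52 and 6.32 CPM with the empty vector. In Pax5-KO cells they summed to 6.85 and 0.377 CPM with Ebf1 and 1.26 and 7.27 CPM with Pax5, against 10.2 and 31.7 CPM with the empty vector. Wild-type cells had 0.311 and 4.69 CPM. Fcer1a, the chain of the mast cell IgE receptor that binds IgE, was at 0 in all 14 libraries. Of the 7 markers, 3 exceeded 1 CPM in both libraries of Ebf1-KO with Pax5, and 3 in those of Pax5-KO with the empty vector. In Ebf1-KO cells 2 did so with Ebf1 and 1 with the empty vector, and 0 did in the other groups. The stem and progenitor markers besides Kit and Flt3 summed to 495 and 416 CPM in Ebf1-KO cells with Ebf1, against 873 and 892 CPM with the empty vector, and to 438 and 520 CPM in Pax5-KO cells with Ebf1, against 874 and 901 CPM with the empty vector. The part of these cells in the Kit values was not tested.

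Il7r, the IL-7Rα chain that gives the receptor its specificity, was expressed in both knockouts and fell with the Pax5 vector in Ebf1-KO cells. Il7r (NM_008372, chr15:9506159-9529876) had 209.9 and 221 CPM in Ebf1-KO cells and 311 and 337 CPM in Pax5-KO cells, against 289.8 and 306 CPM in wild-type cells. Ebf1-KO libraries were below and Pax5-KO libraries above the wild-type ones, by differences that did not pass (log2 -0.47, adjusted p = 0.14, and log2 0.12, adjusted p = 0.75, edgeR). With the Pax5 vector in Ebf1-KO cells Il7r fell to 98.9 and 89.8 CPM, against 209.9 and 221 CPM with the empty vector, a 2.28-fold lower level that held without each library (log2 -1.19 ± 0.20 SE, adjusted p = 0.0031).

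In Pax5-KO cells Il7r had 209 and 179 CPM with the Pax5 vector, against 311 and 337 CPM with the empty vector, without overlap, but the change did not pass (log2 -0.74 ± 0.20 SE, adjusted p = 0.051, edgeR). DESeq2 called it, with an adjusted p of 0.0067. The Pax5 effects in Pax5-KO and Ebf1-KO cells differed by 0.45 log2 units, which did not pass (95% interval -0.15 to 1.05, adjusted p = 0.48). The Ebf1 vector gave 259 and 266 CPM in Ebf1-KO cells, against 209.9 and 221 CPM with the empty vector (log2 0.28, adjusted p = 0.78), and 369 and 253 CPM in Pax5-KO cells, against 311 and 337 CPM with the empty vector (log2 -0.06, adjusted p = 0.91). The first pair does not overlap and the second does.

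Il2rg, the γ chain shared by the receptors for several interleukins, was raised in Pax5-KO cells and lowered again by the Pax5 vector. Il2rg (NM_013563, chrX:101264385-101268255) had 182 and 268 CPM in Ebf1-KO cells and 313 and 517 CPM in Pax5-KO cells, against 135 and 112 CPM in wild-type cells. Every knockout library exceeded both wild-type ones. The rise was 3.36-fold in Pax5-KO cells (log2 1.75 ± 0.29 SE, adjusted p = 0.00069, edgeR) and held without each library. In Ebf1-KO cells it was 1.82-fold and did not pass (log2 0.87 ± 0.28 SE, adjusted p = 0.053), while DESeq2 gave it an adjusted p of 0.0198.

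The Pax5 vector brought Il2rg to 155 and 215 CPM in Pax5-KO cells, against 313 and 517 CPM with the empty vector (log2 -1.16 ± 0.28 SE, adjusted p = 0.0302, edgeR). The groups do not overlap, but the call was lost without Pax5-KO empty-vector replicate 2 or either replicate of Pax5-KO with Pax5, with adjusted p up to 0.404. In Ebf1-KO cells Il2rg stood at 301 and 449 CPM with the Pax5 vector, against 182 and 268 CPM with the empty vector; these libraries were higher, and the change did not pass (log2 0.74 ± 0.28 SE, adjusted p = 0.19). The Pax5 effects in Pax5-KO and Ebf1-KO cells had opposite signs and differed by -1.90 log2 units (95% interval -2.75 to -1.05, adjusted p = 0.018). Without replicate 1 of Ebf1-KO with empty vector, replicate 2 of Ebf1-KO with Pax5, replicate 2 of Pax5-KO with empty vector or replicate 1 of Pax5-KO with Pax5 the difference no longer passed, with adjusted p up to 0.107.

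With the Ebf1 vector Il2rg had 168 and 199 CPM in Ebf1-KO cells, against 182 and 268 CPM with the empty vector (log2 -0.30, adjusted p = 0.91, edgeR), which overlap. In Pax5-KO cells it had 224 and 232 CPM with the Ebf1 vector, against 313 and 517 CPM with the empty vector, which do not (log2 -0.87, adjusted p = 0.105). Il2rg lies on the X chromosome, and the Pax5-KO cells differed from the others in sex-linked genes. Xist, the RNA made from an inactive X, stood at 4649.8 and 2679 CPM in Pax5-KO cells and at 1.24 and 1.52 CPM in Ebf1-KO cells, against 0.466 and 29.6 CPM in wild-type cells, and Ddx3y, a Y-linked gene, was at 0 and 0 CPM in Pax5-KO cells, against 57.5 and 51.9 CPM in wild-type cells. The part of sex in the comparisons between Pax5-KO cells and the others was not tested. The vector comparisons are within 1 genotype.

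NK, innate lymphoid and T cells also make the γ chain, so their markers are given beside it. The 10 NK and innate lymphoid markers summed to 270.3 and 333 CPM in Ebf1-KO cells and 468 and 525 CPM in Pax5-KO cells, against 3.42 and 6.29 CPM in wild-type cells. Ncr1 was at 0 in wild-type cells, in Ebf1-KO cells with Ebf1 and in Pax5-KO cells with Pax5. With Pax5 the 10 markers summed to 143 and 135 CPM in Pax5-KO cells, against 468 and 525 CPM with the empty vector. In Ebf1-KO cells they summed to 467 and 477 CPM with Pax5, against 270.3 and 333 CPM with the empty vector. The 8 T cell markers summed to 136 and 173 CPM in Ebf1-KO cells and 259 and 299.8 CPM in Pax5-KO cells, against 9.32 and 7.27 CPM in wild-type cells. Cd3e, Cd3g, Cd4, Cd8a and Bcl11b were at 0 in wild-type cells. Bcl11b was also at 0 in Pax5-KO cells with every vector and in Ebf1-KO cells with Pax5. Cd3e was also at 0 with Ebf1 in both knockouts and with Pax5 in Pax5-KO cells, and Cd8a with Ebf1 in Pax5-KO cells. With Pax5 the T cell sum was 73.8 and 62.8 CPM in Pax5-KO cells, against 259 and 299.8 CPM with the empty vector, and 167 and 142 CPM in Ebf1-KO cells, against 136 and 173 CPM with the empty vector. The part of these cells in the Il2rg values was not tested.

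**Figure D3:**
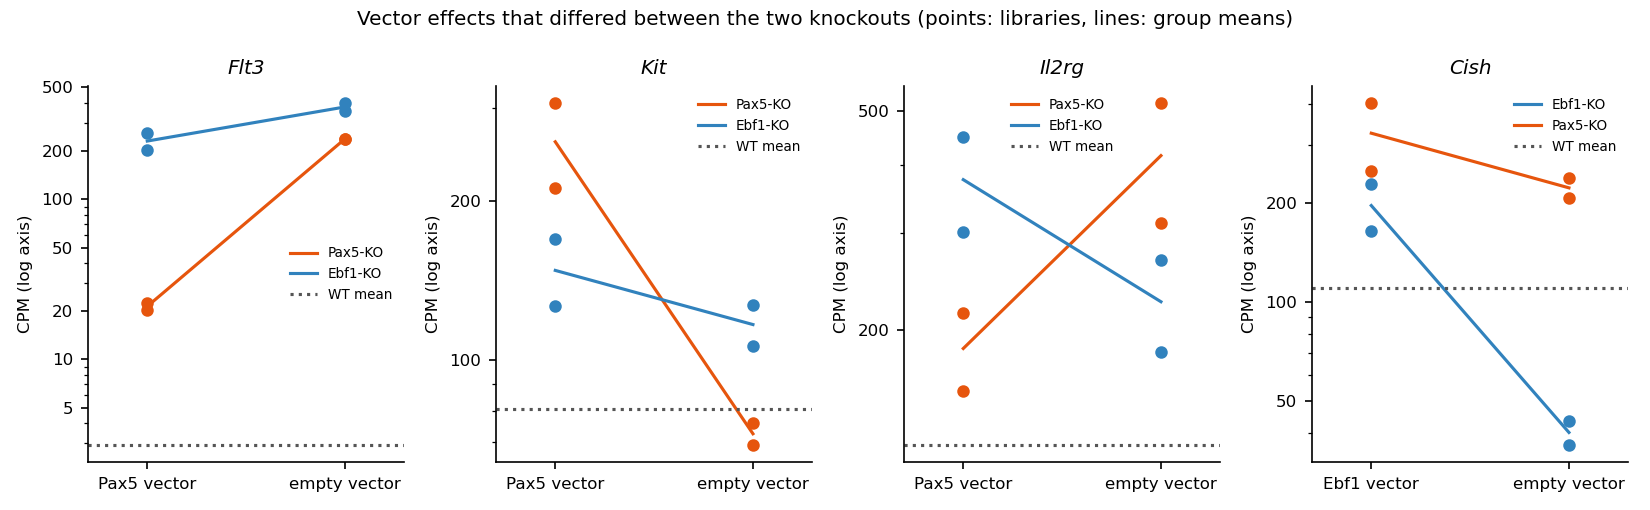
Levels in CPM (log axis) with a vector (left of each panel) and with the empty vector (right) in the 2 knockouts, for the 4 genes whose vector effect differed between them; points are libraries, lines join group means, and the dotted line is the wild-type mean. With Pax5, Flt3 averages 21.5 CPM in Pax5-KO cells, against 239 CPM with the empty vector, and 231 CPM in Ebf1-KO cells, against 378 CPM. Cish reaches 196 CPM with Ebf1 in Ebf1-KO cells, against 40.2 CPM with the empty vector.

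The kinases and transcription factors between the receptors and their targets showed no called change. Jak1, Jak3, Stat5a and Stat5b passed in none of the 10 comparisons, with adjusted p of at least 0.147 for Jak1, 0.149 for Jak3, 0.266 for Stat5a and 0.169 for Stat5b in edgeR. Unadjusted p-values under 0.05 occurred for Jak1, Jak3 and Stat5b. Over the 7 group means the highest exceeded the lowest 1.64-fold for Jak1, 1.63-fold for Jak3, 2.34-fold for Stat5a and 1.72-fold for Stat5b, against 130.0-fold for Flt3. A p that misses the threshold does not show that levels were alike, and the intervals below give the sizes that remain possible.

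Jak1 (NM_146145, chr4:101151974-101265282) had 139 and 191 CPM in Ebf1-KO cells and 242 and 259 CPM in Pax5-KO cells, against 176 and 166 CPM in wild-type cells. Pax5-KO libraries lay above wild type and Ebf1-KO libraries on both sides of it. The log2 change was -0.05 (95% interval -0.55 to 0.46) in Ebf1-KO and 0.55 (0.05 to 1.06) in Pax5-KO cells against wild type. The Pax5 vector gave 258 and 238 CPM in Ebf1-KO cells, against 139 and 191 CPM with the empty vector (log2 0.59, adjusted p = 0.21, edgeR), and 186 and 199 CPM in Pax5-KO cells, against 242 and 259 CPM with the empty vector (log2 -0.38, adjusted p = 0.52). These effects were of opposite sign and differed by -0.96 log2 units, a difference that edgeR did not call (adjusted p = 0.149) and DESeq2 did (adjusted p = 0.037). With the Ebf1 vector Jak1 had 132 and 174 CPM in Ebf1-KO and 172 and 274 CPM in Pax5-KO cells, overlapping the empty vector in both. Jak1 overlaps Raver2 on the opposite strand, and the counting command names no strand, so reads of the 2 genes may be mixed.

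Jak3 (NM_010589, chr8:71676383-71690577) had 62.5 and 49.4 CPM in Ebf1-KO cells and 69.9 and 67.7 CPM in Pax5-KO cells, against 38.3 and 50.5 CPM in wild-type cells. The Pax5-KO libraries were above wild type (log2 0.63, 95% interval 0.05 to 1.21) and the Ebf1-KO ones overlapped it (log2 0.33, -0.24 to 0.91). Among the vector groups Jak3 ranged from 37.5 CPM in an Ebf1-KO library with Ebf1 to 77.1 CPM in an Ebf1-KO library with Pax5. Its locus also holds Insl3 on the same strand, so its counts may include reads of that gene.

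Stat5a (NM_011488, chr11:100859351-100885169) had 26.6 and 23.1 CPM in Ebf1-KO cells and 25.4 and 25.5 CPM in Pax5-KO cells, against 13.6 and 20.8 CPM in wild-type cells. All knockout libraries were above both wild-type ones, with log2 differences of 0.53 (95% interval -0.34 to 1.40) and 0.57 (-0.30 to 1.43). The widest spread within a group was that of Pax5-KO cells with Ebf1, at 22.3 and 58.1 CPM. Stat5b (NM_011489) had 36.1 and 51.2 CPM in Ebf1-KO cells and 52.8 and 61.5 CPM in Pax5-KO cells, against 50.1 and 73.4 CPM in wild-type cells, which overlap (log2 -0.50, 95% interval -1.06 to 0.06, and -0.11, -0.67 to 0.44). With the Pax5 vector it had 66.8 and 72.6 CPM in Ebf1-KO cells, against 36.1 and 51.2 CPM with the empty vector, a difference that did not pass (log2 0.67, 95% interval 0.12 to 1.23). The 2 STAT5 genes are near-identical neighbours, so how their reads were divided is uncertain.

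The feedback genes were called in several comparisons, and not in parallel. Cish, whose product CIS blocks STAT5 docking at receptors, was low in Ebf1-KO cells and high in Pax5-KO cells. Cish (NM_009895, chr9:107296659-107302784) had 36.7 and 43.6 CPM in Ebf1-KO cells and 207 and 237 CPM in Pax5-KO cells, against 103 and 117 CPM in wild-type cells. The 3 groups do not overlap. The level was 2.74-fold lower in Ebf1-KO than in wild-type cells (log2 -1.46 ± 0.25 SE, adjusted p = 0.00083, edgeR), and this held without each library. It was 2.01-fold higher in Pax5-KO than in wild-type cells (log2 1.01 ± 0.25 SE, adjusted p = 0.012), a call lost without either wild-type replicate or Pax5-KO replicate 2, with adjusted p up to 0.102.

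Putting Ebf1 back raised Cish in Ebf1-KO cells to 164 and 229 CPM, against 36.7 and 43.6 CPM with the empty vector. The 4.88-fold rise held without each library (log2 2.29 ± 0.26 SE, adjusted p = 7.3e-05, edgeR). The vector group ended above wild type (log2 0.83, adjusted p = 0.041), but that call was lost without either wild-type replicate or replicate 2 of Ebf1-KO with Ebf1, with adjusted p up to 0.399. In Pax5-KO cells Cish had 249 and 402 CPM with the Ebf1 vector, against 207 and 237 CPM with the empty vector, higher but not past the threshold (log2 0.55 ± 0.24 SE, adjusted p = 0.22).

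The Ebf1 effect on Cish was larger in Ebf1-KO than in Pax5-KO cells by 1.74 log2 units (95% interval 0.99 to 2.48, adjusted p = 0.035, edgeR). This call was lost without either Ebf1-KO empty-vector replicate, replicate 2 of Ebf1-KO with Ebf1, either Pax5-KO empty-vector replicate or replicate 1 of Pax5-KO with Ebf1, with adjusted p up to 0.217. The Pax5 vector gave 64.3 and 76.4 CPM in Ebf1-KO cells, against 36.7 and 43.6 CPM with the empty vector, without overlap and short of the threshold (log2 0.81 ± 0.25 SE, adjusted p = 0.088), where DESeq2 gave an adjusted p of 0.0198. In Pax5-KO cells it gave 202 and 229.8 CPM, against 207 and 237 CPM with the empty vector (log2 -0.04, 95% interval -0.56 to 0.48, adjusted p = 0.98). Pax5-KO cells with Pax5 stayed 1.95-fold above wild type (log2 0.97, adjusted p = 0.026), a call lost when any one of the 4 libraries was left out, with adjusted p up to 0.224.

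Socs2, whose product is part of a ubiquitin ligase that damps cytokine receptors, fell with the Pax5 vector in both knockouts. Socs2 (NM_007706, chr10:95411490-95416857) had 202 and 265 CPM with the Pax5 vector in Ebf1-KO cells, against 434 and 489.7 CPM with the empty vector, a 1.98-fold lower level (log2 -0.98 ± 0.23 SE, adjusted p = 0.026, edgeR). In Pax5-KO cells it had 258 and 313 CPM with the Pax5 vector, against 477 and 696 CPM with the empty vector, a 2.05-fold lower level (log2 -1.04 ± 0.23 SE, adjusted p = 0.017). Neither pair overlaps. The Ebf1-KO call was lost without either empty-vector replicate or replicate 1 of Ebf1-KO with Pax5, with adjusted p up to 0.2, and the Pax5-KO call without empty-vector replicate 2 or either replicate with Pax5, with adjusted p up to 0.23.

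Against wild-type cells, with 383 and 326 CPM, Socs2 was higher in every knockout library with the empty vector. The rise passed in Pax5-KO cells (log2 0.73 ± 0.23 SE, adjusted p = 0.047, edgeR) and not in Ebf1-KO cells (log2 0.38 ± 0.23 SE, adjusted p = 0.32). The Pax5-KO call was lost without either wild-type replicate or Pax5-KO replicate 2, with adjusted p up to 0.481. The Ebf1 vector gave 415 and 534 CPM in Ebf1-KO cells, against 434 and 489.7 CPM with the empty vector, and 514 and 591 CPM in Pax5-KO cells, against 477 and 696 CPM with the empty vector, overlapping both times. The log2 changes were 0.04 (95% interval -0.44 to 0.52) and -0.09 (-0.57 to 0.40).

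**Figure D4:**
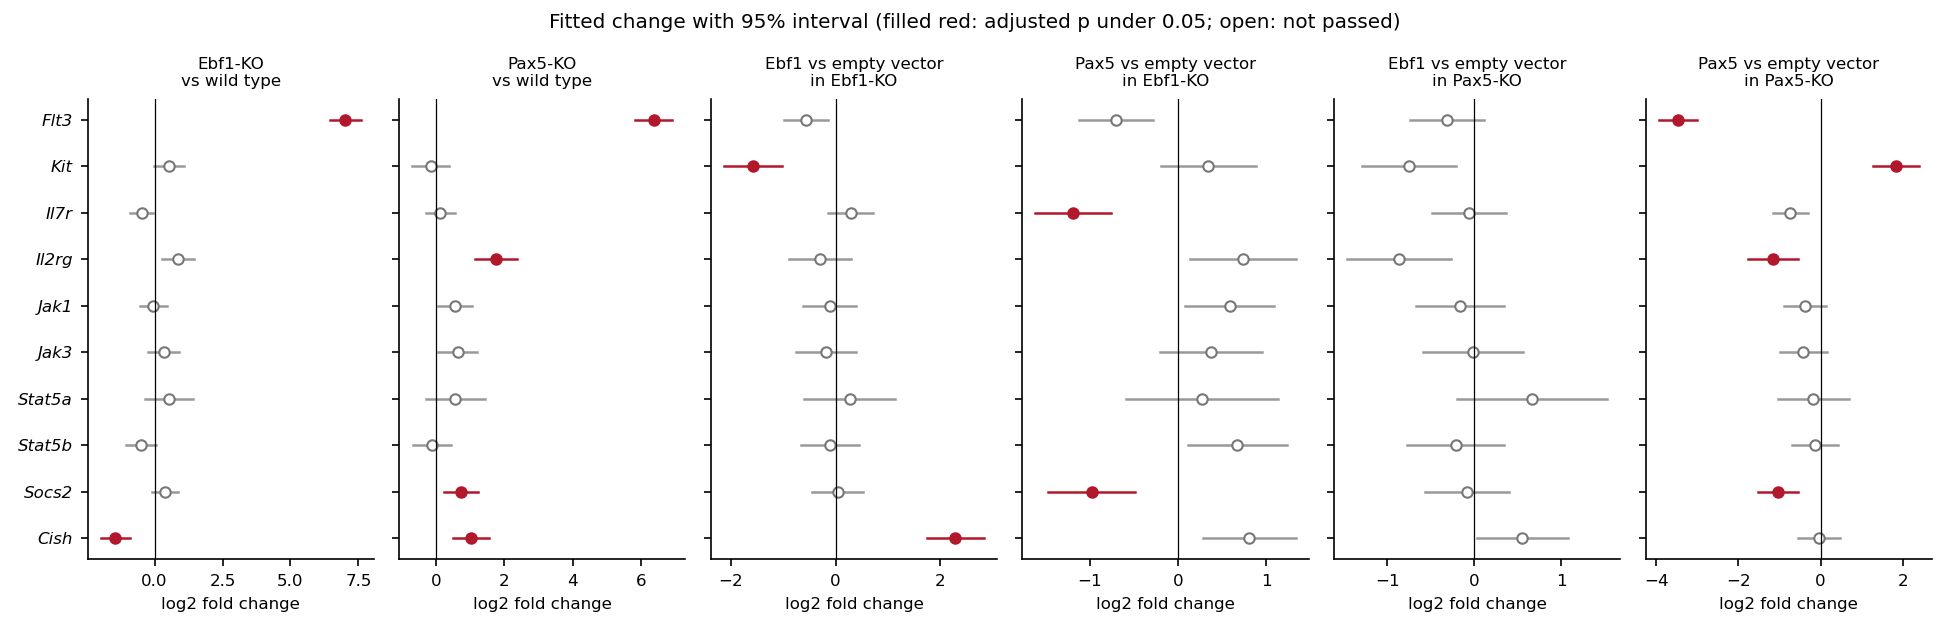
Fitted log2 fold change of each gene with its 95% interval in the 6 comparisons of knockout with wild type and of vector with empty vector; filled red points passed at an adjusted p under 0.05, and each panel has its own x axis. Flt3 stands far to the right in both knockouts, Kit and Cish move with the Ebf1 vector in Ebf1-KO cells, and Jak1, Jak3, Stat5a and Stat5b are open in every panel.

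Per kb of transcript, the order of the genes in wild-type cells was Socs2 at 159.9 CPM per kb, Il7r at 93.1, Il2rg at 74.8, Cish at 36.7, Jak1 at 32.4, Kit at 15.7, Stat5b at 11.8, Jak3 at 11.4, Stat5a at 4.45 and Flt3 at 0.801. In Ebf1-KO cells Flt3, at 104 CPM per kb, stood behind only Socs2 at 208 and Il2rg at 136 among the 10 genes. Cish stood at 13.4 CPM per kb there, below Jak3 at 14.3, and in Pax5-KO cells at 73.8, above Flt3 at 65.8.

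Likeness of pattern is given as Pearson's r of log2 CPM over the 14 libraries, as a description, since the libraries share groups and the points are not independent. The genes most like Flt3 were Slc16a10 (r = 0.970), Lck (0.966) and Ccr9 (0.966). Those most like Kit were Il9r (0.926), Dmtn (0.893) and Pald1 (0.892), and those most like Cish were Prkca (0.945), Scn4b (0.938) and Thrb (0.934). Il2rg was most like Cmtm6 (0.934) and Il7r most like Mef2b (0.913). Among the 10 genes the highest values were 0.749 for Il7r with Socs2 and 0.705 for Il2rg with Jak1, and the lowest were -0.643 for Kit with Socs2 and -0.601 for Kit with Il7r.

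Of 19 listed receptors that share chains or ligand families with the 10 genes, 18 were tested. In Ebf1-KO against wild-type cells 7 were higher and 3 lower, where 14.7% of all genes were called, and in Pax5-KO against wild-type cells 7 were higher and 0 lower, where 13.6% were. Their median log2 change was 1.10 and 0.82, beside 0.03 and 0.04 over all genes. Il2rb, the β chain that pairs with the γ chain in the receptors for IL-2 and IL-15, had 62.4 and 104 CPM in Ebf1-KO cells and 181 and 213 CPM in Pax5-KO cells, against 0.104 and 0.172 CPM in wild-type cells, where it had 2 and 3 counts (adjusted p = 2e-09 and 1.8e-09, edgeR). Il2rb is itself among the NK and innate lymphoid markers whose sums are given with Il2rg, and the part of those cells was not tested.

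The vectors lowered Il2rb in 3 of the 4 settings. It had 14.1 and 16.3 CPM in Ebf1-KO cells with Ebf1, against 62.4 and 104 CPM with the empty vector (log2 -2.45, adjusted p = 6.9e-05, edgeR). In Pax5-KO cells it had 42.3 and 55.0 CPM with the Ebf1 vector (log2 -2.02, adjusted p = 0.001) and 45.8 and 50.2 CPM with the Pax5 vector (log2 -2.04, adjusted p = 0.00034), against 181 and 213 CPM with the empty vector. In Ebf1-KO cells with Pax5 it stood at 148 and 171 CPM, which did not pass.

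Il2ra, the IL-2 receptor α chain and itself a known STAT5 target, behaved differently in the 2 knockouts. Ebf1-KO cells had 9.47 and 11.8 CPM, against 187 and 123 CPM in wild-type cells (log2 -3.86, adjusted p = 2.3e-07, edgeR). Both vectors raised it there, to 51.5 and 35.3 CPM with Ebf1 (log2 2.03, adjusted p = 3e-04) and 53.7 and 54.2 CPM with Pax5 (log2 2.34, adjusted p = 0.00012). Pax5-KO cells had 178 and 199 CPM, and the Pax5 vector lowered that to 81.4 and 105 CPM (log2 -1.02, adjusted p = 0.033). The other receptors called in the vector comparisons were Il4ra and Il21r, lower with Ebf1 in Ebf1-KO cells, Csf2rb, higher with each vector there, Ifngr1, lower with each vector in Pax5-KO cells, and Il21r and Ifnar1, lower with Pax5 in Pax5-KO cells.

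Of 7 listed ligands, 4 were tested, and Csf1, the macrophage growth factor, was the one called in each knockout against wild type. It had 9.56 and 9.32 CPM in Ebf1-KO cells (log2 -1.99, adjusted p = 0.00057, edgeR) and 4.79 and 7.52 CPM in Pax5-KO cells (log2 -2.60, adjusted p = 7.5e-05), against 34.5 and 40.4 CPM in wild-type cells. Given Pax5, it reached 165 and 185 CPM in Pax5-KO cells, against 4.79 and 7.52 CPM with the empty vector (log2 4.83, adjusted p = 3.9e-06). With the Pax5 vector in Ebf1-KO cells 1 of the 4 tested ligands was also called higher, where 4.08% of all genes were called. The difference in Pax5 effects between the knockouts was called for 1 of the 4, where 3.16% of all genes were called. Of the 3 ligands added to the culture, Kitl was at 0 in 13 of the 14 libraries, Il7 stayed below 1 CPM in all, and Flt3l ranged from 0.708 to 16.9 CPM. OP9 stroma makes some of these cytokines. Of its 10 listed markers 6 were tested, and 2 were called higher in Ebf1-KO than in wild-type cells, where 14.7% of all genes were called. In Pax5-KO cells 2 were also higher, where 13.6% of all genes were called. The median log2 change of the tested markers was 1.72 in Ebf1-KO and 1.66 in Pax5-KO cells. The 10 stromal markers summed to 170.1 and 233 CPM in Ebf1-KO cells and 198 and 240.3 CPM in Pax5-KO cells, against 29.2 and 12.8 CPM in wild-type cells, most of it from Thy1, which lymphoid cells also make; their part in these results was not tested.

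Among other JAK, STAT and adaptor genes, Stat2, a partner in interferon signalling, was higher in Ebf1-KO cells (log2 1.38, adjusted p = 0.0008, edgeR) and in Pax5-KO cells (log2 1.13, adjusted p = 0.0043) than in wild-type cells. Jak2 (log2 0.82, adjusted p = 0.021) and Stat4 (log2 2.14, adjusted p = 0.00017) were higher in Pax5-KO than in wild-type cells. In Ebf1-KO cells given Pax5, Stat3 (log2 0.86, adjusted p = 0.016) and Stat4 (log2 1.24, adjusted p = 0.028) were higher than with the empty vector. Stat4 was lower with the Ebf1 vector than with the empty vector in Ebf1-KO cells (log2 -2.01, adjusted p = 0.0015) and in Pax5-KO cells (log2 -1.42, adjusted p = 0.016).

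Of 19 brakes on the pathway, phosphatases, SOCS proteins and ubiquitin ligases, 3 were called in Ebf1-KO against wild-type cells, where 14.7% of all genes were, and 3 in Pax5-KO against wild-type cells, where 13.6% were, so their share was near that of all genes. Ptpn6 and Ptprc were higher and Cblb lower in Ebf1-KO cells, and Socs1, Socs5 and Ptprc were higher in Pax5-KO cells. With vectors Cblb was higher with Pax5 in Ebf1-KO cells, Ptpn6 lower with Ebf1 in Pax5-KO cells and Ptprc lower with Pax5 in Pax5-KO cells.

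Of 12 genes known as STAT5 targets in lymphocytes, a list apart from Cish and Socs2, 2 were higher and 6 lower in Ebf1-KO against wild-type cells, where 14.7% of all genes were called, with a median log2 change of -0.98 beside 0.03 over all genes. In Pax5-KO against wild-type cells 4 were higher and 2 lower, where 13.6% of all genes were called, with a median of -0.04 beside 0.04. Bcl2 and Bcl2l1, survival genes of this list, went opposite ways. Bcl2 had 382 and 467 CPM in Ebf1-KO cells (log2 2.30, adjusted p = 1.7e-06, edgeR) and 339 and 268 CPM in Pax5-KO cells (log2 1.81, adjusted p = 1.8e-05), against 82.6 and 90.1 CPM in wild-type cells. Bcl2l1 had 16.1 and 18.1 CPM in Ebf1-KO cells (log2 -2.66, adjusted p = 5.4e-05) and 21.1 and 42.3 CPM in Pax5-KO cells (log2 -1.77, adjusted p = 0.0018), against 100.02 and 116 CPM in wild-type cells.

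With the Ebf1 vector in Ebf1-KO cells 4 of the 12 targets were higher, namely Myc, Ccnd2, Ccnd3 and Il2ra, and Bcl2 was lower, where 2.97% of all genes were called. Ccnd3, a cyclin that drives pro-B and pre-B cell division, had 402 and 456 CPM there, against 126 and 171 CPM with the empty vector (log2 1.53, adjusted p = 0.0015, edgeR). In Pax5-KO cells given Pax5 2 were higher, Ccnd3 and Bcl2l1, and 5 lower, Pim2, Bcl2, Ccnd2, Il2ra and Id2, where 4.03% of all genes were called. In Ebf1-KO cells given Pax5 Il2ra was higher and Myc lower, where 4.08% of all genes were called, and with the Ebf1 vector in Pax5-KO cells Ccnd3 was higher and Pim2, Bcl2 and Id2 were lower, where 3.6% were.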

How the data were processed

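RNA counts were read from the authors' deposited table of whole-number exon counts per gene on mm10, made with HOMER without normalization, per the file headers. The submitters' processing notes name STAR 2.6.0b-1 and HOMER 4.8, and strand is not given in the sources used here. One EBF1 peak list, called with HOMER and filtered by IDR over replicates per the file headers and labels, was deposited; its normalized tag count is a signal, its findPeaks score and its fold over control (a ratio) are the authors' deposited values. The contact profiles of Myc were not used here.

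Counts were fitted in R 4.3.3 with edgeR 4.0.16 (TMM scaling, filterByExpr, 1 quasi-likelihood fit over 7 groups, Benjamini-Hochberg over 14550 genes, threshold 0.05), and the code was tested on simulated data. CPM values are counts scaled to TMM library sizes, and correlations used log2 CPM with a prior count of 2. Alternatives were a replicate block, RLE scaling, no filter, DESeq2 1.42.0 and leaving out each library, where the lone library left in a group is assumed to vary like the other groups. The genes described and the lists were chosen with earlier results of these data known, and the sex-linked genes after their values were seen. All 10 genes were named in each comparison, and others only from the fixed lists where called, or among the 3 most like a gene.

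In the Pax5-KO group with empty pMiG, 1 column carries no number, and it was used as replicate 1 beside the column numbered 2. A tag in the column names parts the libraries by replicate number, and what it marks is not stated. In the 20 called comparisons between 2 groups the change had the same sign within each tag. Replicates of a group had correlations of log2 CPM from 0.895 to 0.971, and none looked like 1 library deposited under 2 numbers. Depths limit precision by counting error, and a count of 3 equals 0.0753 to 0.18 CPM per library. Some genes of the lists are not reported here, and no count is given for the list they would complete.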

Additional observations from a re-analysis of the deposited data

Results flagged for a closer look

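The difference in a vector's effect between the knockouts passed edgeR's quasi-likelihood test with Benjamini-Hochberg adjustment for 4 of the 10 genes. For the Pax5 vector it passed for 3, where 3.16% of all genes were called, and for the Ebf1 vector for 1, where 0.612% were. The Pax5 effect in Pax5-KO minus that in Ebf1-KO cells was -2.77 log2 units for Flt3 (adjusted p = 0.00024), 1.497 for Kit (adjusted p = 0.035) and -1.90 for Il2rg (adjusted p = 0.018). The Ebf1 effect in Ebf1-KO minus that in Pax5-KO cells was 1.74 log2 units for Cish (adjusted p = 0.035). All these differences are between knockouts that also differed in sex-linked genes, whose part was not tested. Of the 4, the Flt3 difference was the one that passed without each library in turn.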

How the results depend on the processing

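Over the 10 comparisons, edgeR made 24 calls on the 10 genes, and 0 of them were lost with a replicate block, RLE scaling, no filter on low counts or DESeq2. These settings added 6, 2, 5 and 7 calls. Numbers of genes called among the 10 moved as follows. The share of all genes called under each of these settings is not given here. The numbers are therefore no result about the 10 genes apart from the rest. With the Pax5 vector in Ebf1-KO cells 2 became 4 with the replicate block, 4 with no filter and 4 with DESeq2. The block's added calls there were Flt3 (adjusted p = 0.029) and Cish (adjusted p = 0.014). With the Ebf1 vector in Pax5-KO cells 0 became 1, Il2rg, with the replicate block (adjusted p = 0.039), with no filter and with DESeq2. Il2rg made 2 into 3 for Ebf1-KO against wild type and Il7r made 4 into 5 for the Pax5 vector in Pax5-KO cells under all 4 settings, and Il7r made 3 into 4 for Pax5-KO with Pax5 against wild type with the block and DESeq2. Jak1 made 3 into 4 for the difference in Pax5 effects with DESeq2. Without each library in turn 11 calls were lost in at least 1 fit, and the number called ran from 2 to 3 for Ebf1-KO against wild type, 2 to 4 for Pax5-KO against wild type, 1 to 2 for the Pax5 vector in Ebf1-KO cells, 2 to 4 for the Pax5 vector in Pax5-KO cells, 1 to 2 for Ebf1-KO with Ebf1 against wild type (3 with all libraries), 2 each time for Pax5-KO with Pax5 against wild type (3 with all libraries), 1 to 2 for the difference in Pax5 effects (3 with all libraries) and 0 to 1 for that in Ebf1 effects; the cause was not tested beyond the smaller number of libraries. Requiring the EBF1 peak centre inside the gene moved the genes with a peak to 5 from 9. Same-numbered libraries were not treated as pairs: correlations of their deviations from group means ran from -0.059 to 0.236 and exceeded 0.1 in 13 of 21 pairs of groups. Among the knockout groups they were all positive, from 0.076 to 0.236. Between a knockout group and wild type they ran from -0.059 to 0.013. The replicate block, not the main fit, allowed for such a shared part. Depth limits mainly Flt3 in wild-type cells, at 2.91 CPM.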
